A study of Mus musculus with 6 samples.

Results

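The genes described here are 7 claudins (Cldn1, Cldn3, Cldn4, Cldn5, Cldn7, Cldn8 and Cldn12), occludin (Ocln) and the scaffold Tjp1, which encodes ZO-1. They were taken by gene symbol, by a rule that uses no measured value though it was set with earlier results of these data known, and all 9 are present among the 15280 genes of the RNA-Seq table. The table holds 7 further symbols of the form Cldn plus a number, which are described beside them. RNA-Seq was performed on total RNA from 3 BK5.ATF3 transgenic female mice, with 1 mammary tumor and 1 adjacent normal mammary gland from each mouse. Libraries are named M for gland and T for tumor with the number of the mouse: M11035 and T11035, M11640 and T11640, M9232 and T9232. In BK5.ATF3 mice the bovine keratin 5 promoter drives ATF3, a bZIP transcription factor of the stress response, in basal epithelial cells. Glands and tumors alike carried the transgene, so no tissue without it was compared. All females had been bred and had reared a litter, tumors appeared at 6 to 12 months of age, and each tumor was taken once it was 1.5 cm long.

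Tight junctions seal the space between neighboring epithelial or endothelial cells near their apical side. Claudins form the strands and, depending on which claudins are present, make them tight or selectively permeable to ions; occludin and related MARVEL proteins join the strands, and ZO proteins tether them to actin. In the mammary gland the luminal cells carry these junctions, which close around lactation, whereas in stratified epithelia such as the epidermis they lie in the upper living layers, with claudin-1 and claudin-4 among their components.

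Libraries held 4750989 to 7806908 fragments in the table. Values are CPM on the effective library size that the authors computed with edgeR, and each triple of values follows the order M11035, M11640 and M9232 for glands and T11035, T11640 and T9232 for tumors. A floor of 3 fragments corresponds to 0.393 to 0.610 CPM. Marker lists described the tissue in each library. Rose, fell and called refer to the test defined in the next paragraph. By that test 14.5% of all genes were called higher in tumor and 13.7% lower. All 7 adipocyte markers fell in the tumors, from Lipe (log2 fold change -3.23) to Adipoq (-7.00), and their sum was 3254 to 6373 CPM in glands against 148 to 206 CPM in tumors. All 4 basal epithelial markers rose, from Trp63 (3.41) to Krt14 (5.75), from a sum of 38.2 to 94.4 CPM to a sum of 1859 to 2110 CPM. All 7 suprabasal epidermal markers rose, from Lor (3.84), which was at 0 in the 3 glands, to Krt1 (8.64), with sums of 14.6 to 16.4 CPM and 1649 to 3011 CPM. Of the 6 simple epithelial markers 4 rose, led by Cdh1 (2.33), while Epcam (0.56) and Muc1 (-1.77) were not called, and their sum was 207 to 451 CPM in glands and 650 to 896 CPM in tumors. Of 9 endothelial markers 4 fell, with Emcn (0.28, not called) highest and Ptprb (-1.40) lowest, and with sums of 573 to 801 and 279 to 412 CPM. Of 7 leukocyte markers 4 fell, with Emr1 (0.75, not called) highest and Ms4a1 (-6.10) lowest, and with sums of 1302 to 2140 and 566 to 782 CPM. All 5 milk protein genes fell, from Lalba (-3.57), at 0 in the 3 tumors, to Csn2 (-5.79), with sums of 2274 to 40793 CPM in glands, highest in M9232, and 118 to 748 CPM in tumors. Skeletal muscle markers (1 of 4 called, lower) summed to 3137 and 1270 CPM in M11035 and M11640 and to at most 7.82 CPM in the other libraries, and of 4 Schwann cell markers 2 fell. In such bulk tissue fewer cells of a type and less RNA per cell cannot be told apart.

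The question put to the genes was which of them differed between tumor and gland. Cldn1 and Cldn4 rose by 3.26 and 3.99 on the log2 scale, Ocln rose by 1.17, Tjp1 and Cldn12 were higher by less than 2-fold, and Cldn3, Cldn5, Cldn7 and Cldn8 did not pass the test. A gene was called where its Benjamini-Hochberg adjusted p over all 15280 genes was at most 0.05 and its change was 2-fold or more (1 on the log2 scale) in either direction, with limma on log2(CPM + 0.5), a scale that understates the change of low genes. Of the 9 genes, 3 were called higher in tumor, against a background of 14.5% of all genes (2212), and 0 were called lower, against 13.7% (2097). The adjusted p alone was passed by 5 of the 9 and by 6289 of the 15280 genes, and of the 5, Cldn12 did not pass with the replicate block. For 5 of the 9 the groups did not overlap, compared with 54% of all genes. The median log2 fold change over the 9 genes was 0.73, and over all genes it was -0.0028. Each group was 3 samples, 1 from each mouse, so p-values measure the spread between these samples only.

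**Figure D1:**
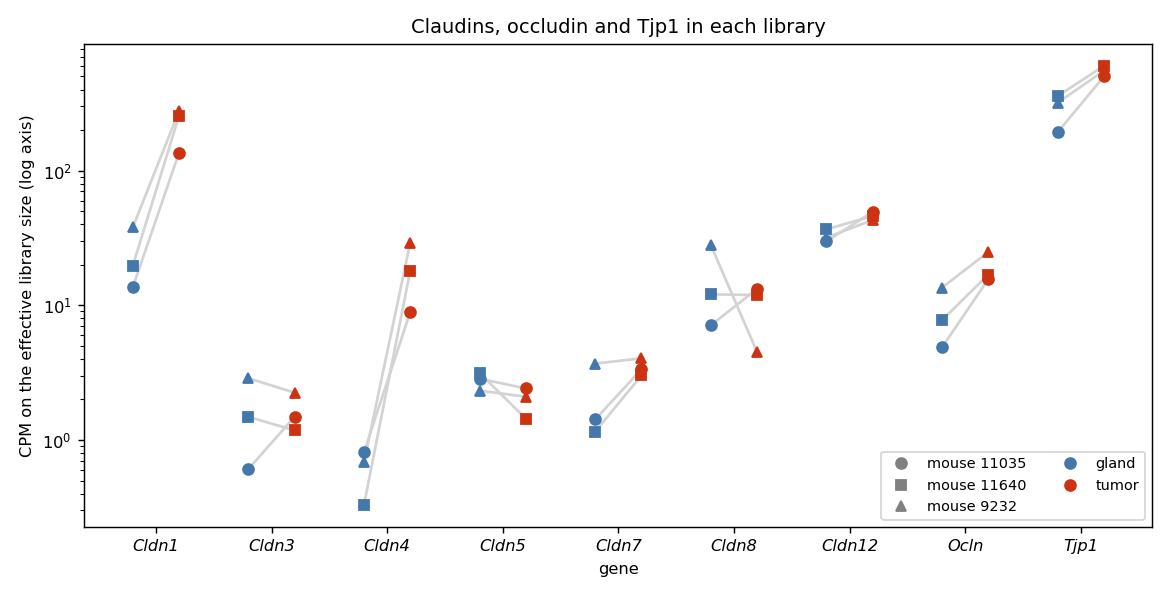
CPM on the effective library size (log axis) of the 9 genes in each of the 6 libraries, colored by tissue, with a marker shape for each mouse and grey lines joining its gland and tumor. Cldn1 and Cldn4 stand clear of the glands in every tumor (136 to 277 against 13.6 to 37.9 CPM, and 8.93 to 29.2 against 0.330 to 0.813 CPM), whereas the symbols of Cldn3, Cldn5, Cldn7 and Cldn8 mix.

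Cldn1 encodes claudin-1, a sealing claudin required for the barrier of the epidermis (chr16:26356728-26371927, minus strand, mm9). Its level was 13.6, 19.7 and 37.9 CPM in the glands (23.7 ± 12.6, SD, n = 3) and 136, 255 and 277 CPM in the tumors (223 ± 76.2, n = 3). Every tumor was above every gland. The log2 fold change was 3.26 (SE 0.39, adjusted p = 0.000268). Within mice the ratio of T11035 to M11035 was 9.96 (exact 95% interval 7.75 to 13.0, from 729 and 67 fragments), that of T11640 to M11640 was 13.0 (10.8 to 15.8) and that of T9232 to M9232 was 7.32 (6.44 to 8.33). These intervals cover counting error only, and the last lies wholly below that of T11640 to M11640. The gland with the most Cldn1, M9232, was also the gland with the highest sum of simple epithelial markers (451 CPM, against 207 and 247 CPM in the other glands). M9232 was likewise the highest gland in the basal epithelial sum (94.4 CPM, against 38.2 and 83.2 CPM) and the milk protein sum (40793 CPM, against 2274 and 4583 CPM). It was the lowest in the adipocyte, skeletal muscle and Schwann cell sums, and lay between the others in the remaining lists.

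Cldn4 and Cldn3 are neighboring genes without introns on chromosome 5, and both encode sealing claudins of simple epithelia that also act as receptors for a clostridial enterotoxin. Cldn4 lies on the minus strand (chr5:135420996-135422804) and Cldn3 on the plus strand (chr5:135462084-135463342), 39279 bases apart in mm9. Cldn4 was near the floor in the glands at 0.813, 0.330 and 0.684 CPM (4, 2 and 5 fragments) and reached 8.93, 18.1 and 29.2 CPM in the tumors (48, 138 and 195 fragments). The group values of Cldn4 were 0.609 ± 0.25 and 18.7 ± 10.2 CPM, and no gland came near a tumor. Its log2 fold change was 3.99 (SE 0.42, adjusted p = 0.000148), the largest of the 9 genes. The ratio within mice, in the same order, was 10.98 (4.02 to 41.9), 54.7 (14.9 to 457) and 42.7 (18.0 to 133), with wide intervals because the gland counts were so low. T11035, the tumor with the least Cldn4, also had the lowest sum of suprabasal markers among tumors (1649 CPM, against 3011 and 2667 CPM). That was not particular to this list. Its simple epithelial (650 CPM), basal epithelial (1859 CPM), endothelial (279 CPM), leukocyte (566 CPM) and Schwann cell (19.4 CPM) sums were the lowest among tumors too. Its milk protein and skeletal muscle sums were the highest, and its adipocyte sum lay between. The suprabasal sum was highest in T11640, whereas Cldn4 was highest in T9232.

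Cldn3, by comparison, was at 0.610, 1.49 and 2.87 CPM in the glands and at 1.49, 1.18 and 2.25 CPM in the tumors, from 3 to 21 fragments. The groups lay on top of each other, with a log2 fold change of 0.10 (SE 0.45, adjusted p = 0.88) whose sign turned under other settings: it was -0.070 with edgeR, -0.042 with DESeq2, -0.31 without M11035 and -0.095 without T9232. A change in Cldn3 was not detectable at this depth. Within libraries the log2 ratio of Cldn4 to Cldn3 was 0.24, -1.26 and -1.51 in glands and 2.25, 3.47 and 3.44 in tumors. The mean difference of that ratio was 3.89, with no overlap (two-sided exact permutation test, p = 0.1, the smallest that 3 against 3 can give). The gene on the other side of Cldn4, Wbscr27 (chr5:135408238-135418507, plus strand), ends 2488 bases from it and was picked for that position. Wbscr27 went from 17.5, 22.0 and 23.5 CPM in the glands to 7.82, 6.68 and 9.89 CPM in the tumors, a fall (log2 fold change -1.32, SE 0.22, adjusted p = 0.00175). Of the 3 genes side by side, then, the middle gene rose, 1 flank fell and the other was not called. The libraries are not stated to keep strand, but no exon of the 3 overlaps another gene of the table.

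The 250 bases before the RefSeq start of Cldn1, Cldn4 and Cldn3 are shown because Cldn1 and Cldn4 rose while Cldn3, next to Cldn4, did not pass the test. They come from RefSeq promoters on GRCm38.p6, and each matched mm9 exactly at 1 place: chr16:26371926-26372175 (minus strand) for Cldn1, chr5:135422805-135423054 (minus strand) for Cldn4 and chr5:135461834-135462083 (plus strand) for Cldn3. Each runs 5′ to 3′ towards the start, and capitals mark matches on either strand to the E-box CAGGTG, to the AP-1 site TGANTCA and to TGACG, the shorter core of the CRE TGACGTCA, which overlaps it.
Cldn1: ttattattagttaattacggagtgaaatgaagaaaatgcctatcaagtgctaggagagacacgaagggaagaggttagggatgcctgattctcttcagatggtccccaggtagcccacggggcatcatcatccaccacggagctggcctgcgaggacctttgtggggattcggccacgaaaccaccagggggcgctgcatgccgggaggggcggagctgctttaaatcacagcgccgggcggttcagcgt
Cldn4: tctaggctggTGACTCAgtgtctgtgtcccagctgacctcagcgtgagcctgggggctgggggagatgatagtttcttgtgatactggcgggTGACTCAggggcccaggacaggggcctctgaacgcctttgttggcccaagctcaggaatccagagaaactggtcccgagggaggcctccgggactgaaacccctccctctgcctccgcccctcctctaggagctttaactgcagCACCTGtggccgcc
Cldn3: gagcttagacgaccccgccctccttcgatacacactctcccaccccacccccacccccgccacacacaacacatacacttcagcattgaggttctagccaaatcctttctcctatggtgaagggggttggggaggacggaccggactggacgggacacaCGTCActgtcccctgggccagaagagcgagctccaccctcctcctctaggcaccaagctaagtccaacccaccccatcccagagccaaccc
The Cldn4 window held 2 AP-1 matches, with their first bases 240 and 158 bases before the start, and an E-box at 14 bases. The Cldn3 window held 1 TGACG match, 91 bases before the start, and the Cldn1 window held none of the motifs, the grainyhead letters AACNNGTT included. Among all 32851 promoters of this length, 17.2% held CAGGTG, 6.75% TGANTCA, 3.64% AACNNGTT, 1.55% TGACGTCA and 17.8% TGACG. A promoter was found for 8 of the 9 genes, and the windows of Cldn12 and Tjp1 held no match. In the others, 1 of the Ocln entries had E-boxes 213 and 68 bases before its start. The other Ocln entry, whose start adjoins the gene end given below for Ocln, held no match. Cldn5 had AACNNGTT at 20 bases, and 1 of the Cldn7 entries had E-boxes at 97 and 57 bases and TGACGTCA at 38 bases. The window of that Cldn7 entry lies inside the gene span given below for Cldn7. The window of the other Cldn7 entry, which adjoins the start of that span, held no match. These matches describe letters only, and binding was not measured.

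Ocln encodes occludin, a MARVEL protein of the strands (chr13:101266462-101322673, minus strand). Its level was 4.88, 7.76 and 13.5 CPM in glands (8.73 ± 4.41) and 15.6, 16.9 and 24.9 CPM in tumors (19.1 ± 5.01). The lowest tumor was just above the highest gland. Ocln was called, at a log2 fold change of 1.17 (SE 0.35, adjusted p = 0.0279), and was higher in 3 of 3 mice, with ratios of 3.20 (2.01 to 5.27), 2.18 (1.55 to 3.11) and 1.84 (1.42 to 2.38). The call rested on most of the libraries: it was lost without M11035 (0.84, adjusted p = 0.0661), M11640 (1.15, 0.0668), T11640 (1.24, 0.0698) or T9232 (0.97, 0.107).

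Tjp1, the ZO-1 scaffold that binds claudin tails and actin (chr7:72441051-72516125, minus strand), gave the most fragments of the 9 genes. It measured 193, 357 and 319 CPM in glands (290 ± 86.0) and 500, 599 and 552 CPM in tumors (550 ± 49.5). All tumors were above all glands, and the log2 fold change of 0.97 (SE 0.23, adjusted p = 0.00896) passed the p and stayed just below the fold threshold. It went over that threshold without M11640 (1.14), M9232 (1.06) or T11035 (1.04). Cldn12, an unusual claudin without the usual tail motif for ZO proteins (chr5:5505109-5514958, minus strand), varied little within each group, at 29.9, 36.7 and 31.9 CPM in glands and 49.3, 46.0 and 43.0 CPM in tumors. Its groups did not overlap either, and its log2 fold change of 0.49 (SE 0.16, adjusted p = 0.0365) passed the p but not the fold threshold. The p of Cldn12 missed 0.05 in the paired fits by mouse, with the replicate block (0.0522 with limma and 0.0579 with edgeR), in limma without the trend (0.0577), and without M11035 (0.0908), M9232 (0.0891), T11035 (0.0970), T11640 (0.107) or T9232 (0.0555).

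Cldn7, the claudin that binds Epcam at the basolateral side of epithelial cells (chr11:69778281-69781387, plus strand), was at 1.42, 1.16 and 3.69 CPM in glands and 3.35, 3.01 and 4.05 CPM in tumors. M9232 lay among the tumors. The log2 fold change was 0.73 (SE 0.39, adjusted p = 0.165), and without that gland it was 1.15 (adjusted p = 0.0268), which would have been called; together with Tjp1 this brought the number called to 5 of 9. Cldn5, the main claudin of endothelium (chr16:18776940-18778353, plus strand), was at 2.85, 3.14 and 2.33 CPM in glands and 2.42, 1.44 and 2.10 CPM in tumors, a log2 fold change of -0.41 (SE 0.30, adjusted p = 0.302). Relative to the mean of the 9 endothelial markers within each library, the log2 difference in Cldn5 between tumor and gland was 0.33 (exact permutation p = 0.3).

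Cldn8, a barrier claudin best known from the distal nephron (chr16:88561073-88563428, minus strand), moved in opposite directions in different mice. It was at 7.12, 12.1 and 28.0 CPM in glands and at 13.2, 11.9 and 4.50 CPM in tumors. The tumor to gland ratio was 1.86 for T11035 to M11035 (1.22 to 2.87), 0.989 for T11640 to M11640 (0.719 to 1.36) and 0.160 for T9232 to M9232 (0.105 to 0.236), so the first and the last interval lay on opposite sides of 1. These intervals cover counting error only, not the spread between samples of the same mouse. Over the groups the log2 fold change was -0.56 (SE 0.53, adjusted p = 0.424). The milk protein sum ran in the same order, at 2274, 4583 and 40793 CPM in the glands and 748, 458 and 118 CPM in the tumors; its part in the Cldn8 values was not tested.

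Compared per length, claudin transcripts were more abundant in tumors and came mostly from 1 gene. Levels were divided by the exon length of each gene (GENCODE vM1 on mm9) for the 13 claudins, leaving out the claudin domain gene Cldn25. The sum was 24.7, 31.7 and 44.4 CPM per kb in glands (33.6 ± 9.96) and 73.5, 114 and 128 CPM per kb in tumors (105 ± 28.3). Cldn1 made up 17.0%, 19.1% and 26.3% of that sum in glands and 56.8%, 68.8% and 66.8% in tumors (20.8% ± 4.89 and 64.1% ± 6.39). In glands the order was Cldn12 (8.05 ± 0.856 CPM per kb), Cldn1 (7.31 ± 3.89) and Cldn8 (6.68 ± 4.64), which did not differ beyond their spread. In tumors Cldn1 (68.6 ± 23.5) was far above Cldn12 (11.3 ± 0.774) and Cldn4 (10.4 ± 5.62), and the latter pair did not differ beyond their spread. Next came Cldn8 (4.19 ± 2.0) and Cldn23 (3.56 ± 2.93), while Cldn7 (1.78 ± 0.270), Cldn5 (1.40 ± 0.352) and Cldn3 (1.30 ± 0.437) were low. The share of Cldn4 went from 1.08% to 9.37%, and the shares of Cldn12 (25.2% to 11.5%) and Cldn8 (18.4% to 4.52%) became smaller as Cldn1 grew. On the same scale Ocln was at 2.07 ± 1.04 and 4.53 ± 1.19, and Tjp1 at 39.3 ± 11.7 and 74.7 ± 6.72 CPM per kb.

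**Figure D2:**
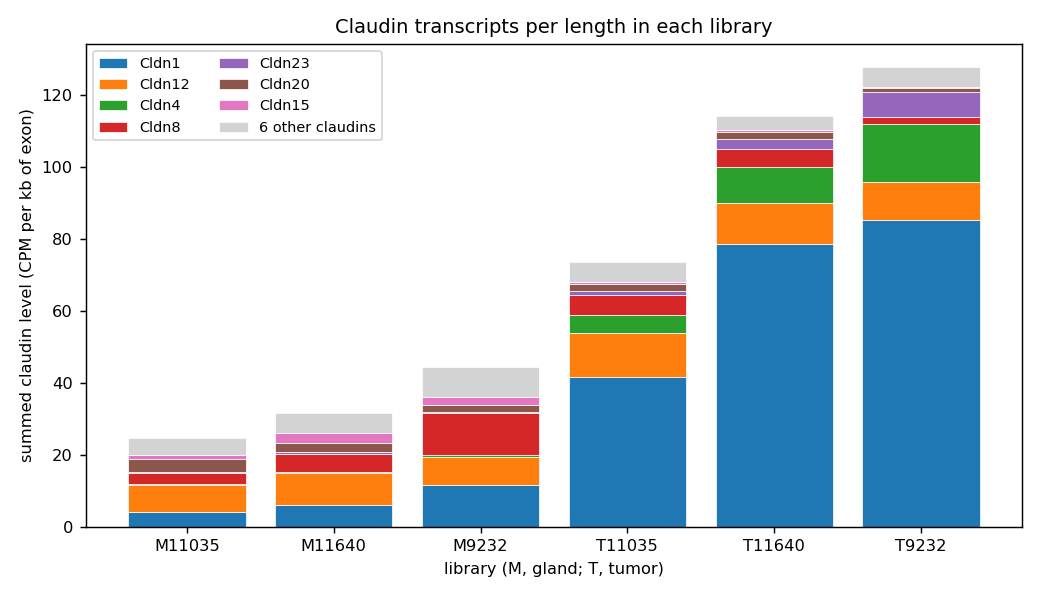
Stacked bars of the claudin level per length (CPM per kb of exon) in each library, M for gland and T for tumor. Colors mark Cldn1, Cldn12, Cldn4, Cldn8, Cldn23, Cldn20 and Cldn15, each among the 5 most abundant in glands or in tumors, and grey marks the rest. Cldn1 fills 56.8% to 68.8% of each tumor bar and 17.0% to 26.3% of each gland bar, and the bars total 73.5 to 128 against 24.7 to 44.4 CPM per kb.

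Whether a gene moved more or less than the simple or the basal epithelial markers was examined as a log2 ratio within each library. Neither list measures the epithelium as a whole. Relative to the mean of the 6 simple epithelial markers, Cldn1 was at -0.37, -0.33 and -0.34 in glands and higher in tumors (1.50, 2.43 and 2.16), a difference of 2.38. The difference was 3.11 for Cldn4, 0.29 for Ocln and 0.08 for Tjp1, and it was -0.78 for Cldn3, -1.29 for Cldn5, -0.15 for Cldn7, -1.45 for Cldn8 and -0.40 for Cldn12. For Cldn1, Cldn3, Cldn4, Cldn8 and Ocln the groups did not overlap. The share of all genes without overlap in such a ratio was not computed, and for the level itself it was 54%. The choice of markers matters here, since Muc1 (-1.77, not called) went against the other 5. With the mean of those 5 alone, an alternative chosen after seeing the data, the difference was 1.85 for Cldn1 and 2.58 for Cldn4 and turned negative for Ocln (-0.25) and Tjp1 (-0.45), with overlapping groups for both. It was -1.32 for Cldn3, -1.82 for Cldn5, -0.68 for Cldn7, -1.98 for Cldn8 and, with overlap, -0.93 for Cldn12. Relative to the 4 basal markers, which rose far more, the difference was -1.80 for Cldn1 and -1.07 for Cldn4, and for the other 7 genes it ran from -3.90 (Ocln) to -5.63 (Cldn8). Over the 19 ratios computed, the smallest exact permutation p was 0.1, or 0.146 after adjustment, so none could pass a threshold of 0.05 in this design. For Tjp1 the exact p of the ratio to simple epithelial markers was 1, with 3.40, 3.82 and 2.71 in glands and 3.38, 3.66 and 3.15 in tumors.

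**Figure D3:**
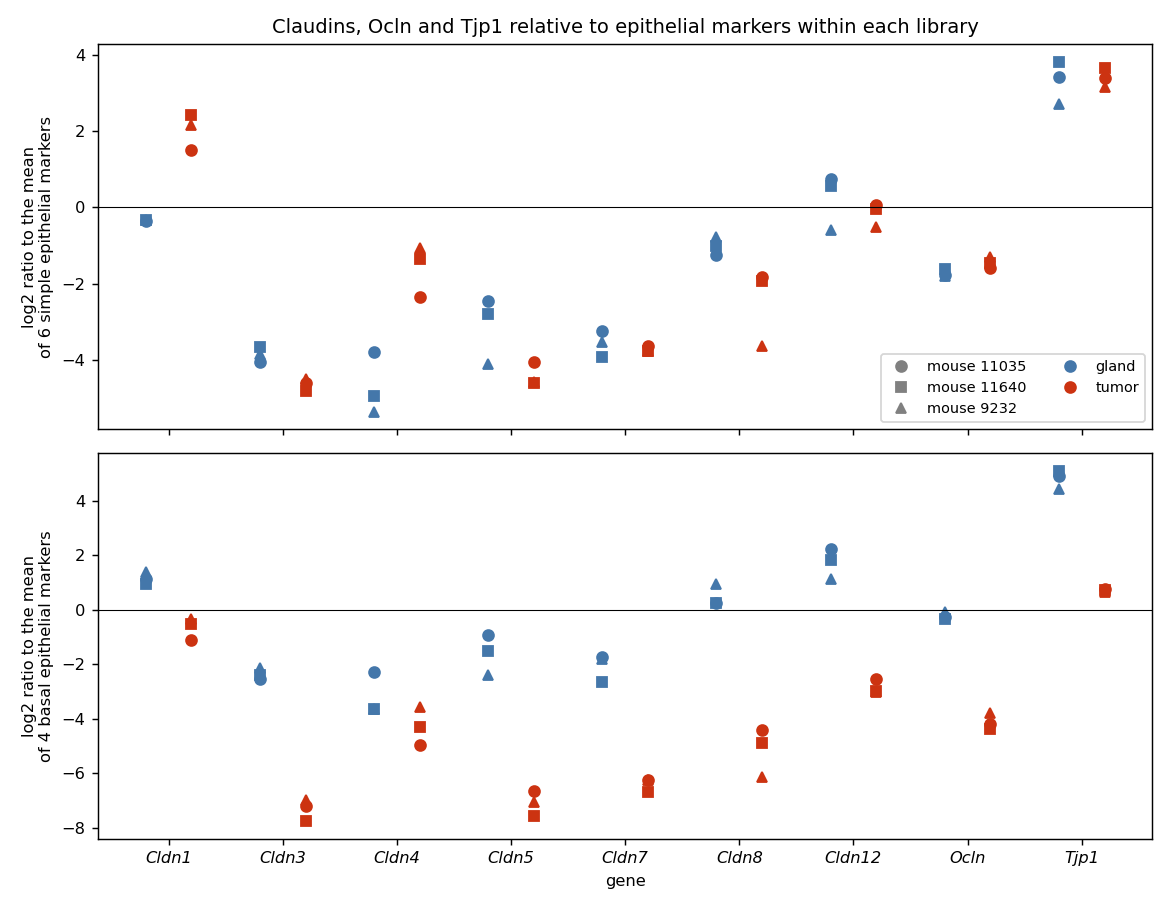
Log2 ratio of each gene to the mean of the simple epithelial markers (upper panel) and of the basal epithelial markers (lower panel) within each library. Cldn1 and Cldn4 are above the glands in the upper panel (by 2.38 and 3.11) whereas their differences in the lower panel are -1.80 and -1.07, with overlap for Cldn4, and the remaining 7 genes sit at -3.90 or lower against the glands in the lower panel.

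Of the 7 other claudin symbols 1 rose and 3 fell (14.5% and 13.7% of all genes did), and all but Cldn25 were at 12.6 CPM or less in every library. Cldn23 went from 0.610, 0.661 and 0.274 CPM (3, 4 and 2 fragments) to 2.05, 5.11 and 12.6 CPM. That rise had a log2 fold change of 2.52 (SE 0.55, adjusted p = 0.00696), which was 1.92 without T9232 and 3.10 without T11035. Cldn15, which forms cation channels in the intestine, fell from 2.85, 6.28 and 4.92 CPM to 1.12, 1.05 and 0.599 CPM (log2 fold change -1.83, SE 0.36, adjusted p = 0.00387). Cldn11, a claudin of myelin and Sertoli cells, was at 0.813, 0.826 and 1.78 CPM in glands, from 4, 5 and 13 fragments. In the tumors Cldn11 had 1, 0 and 0 fragments and was called lower (log2 fold change -1.51, SE 0.41, adjusted p = 0.0186). Its gland mean was 2.44-fold the mean floor of 3 fragments in tumors, with no allowance for counting error in the glands. Cldn2, a cation channel of leaky epithelia, was at 1.42, 1.82 and 1.78 CPM in glands and 0.372, 0.655 and 0 CPM in tumors (-1.44, SE 0.41, adjusted p = 0.0215). The calls of these last genes were fragile: Cldn11 was lost without M9232 (adjusted p = 0.0638), and Cldn2 without M11640 (0.0661), M9232 (0.0520) or T9232 (0.0529), so that only Cldn15 of the 3 was called without M9232. Cldn2 also missed the threshold with edgeR (0.0512), with edgeR and the replicate block (0.0617) and with DESeq2 (0.0552). Cldn10 (-0.48) and Cldn20 (-0.44) were not called, and neither was Cldn25 (0.73, adjusted p = 0.0247), a symbol for the claudin domain gene Cldnd1 rather than for a classical claudin. The median log2 fold change of the 7 genes was -0.48.

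Among 11 other membrane proteins of the junction, 3 rose and 3 fell, with a median log2 fold change of -0.37, where 14.5% and 13.7% of all genes did. The genes that rose were Lsr (1.72, SE 0.21), an angulin of the corners where several cells meet, Cxadr (1.48, SE 0.30), the adenovirus receptor, and F11r (1.37, SE 0.22), the junctional adhesion molecule JAM-A. Lsr was at 9.35, 6.77 and 9.85 CPM in glands and 26.6, 30.1 and 31.6 CPM in tumors. Lower in tumors were Jam2 (-2.10, SE 0.25), a relative of JAM-A, Ildr1 (-1.66, SE 0.33), another angulin, and Igsf5 (-1.57, SE 0.34), whose exons overlap those of Pcp4, so that its value is less certain. Jam2 went from 91.5, 129 and 98.2 CPM to 16.9, 26.3 and 31.5 CPM, while the whole endothelial list summed to 573 to 801 and 279 to 412 CPM. Lsr and Ildr1, both angulins, thus changed in opposite directions, and their adjusted p were 0.000276 and 0.00435. Marveld2, which encodes tricellulin, was not called (0.38, adjusted p = 0.182), and Jam3 passed the p and lay just short of the fold threshold (-1.0, adjusted p = 0.00793), and it was called lower under 9 of the 16 alternatives.

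Among 24 scaffold, polarity and signaling genes of the junction plaque, 3 rose and 1 fell, with a median of 0.30, beside 14.5% of all genes called higher and 13.7% called lower. Tjp3, which encodes ZO-3, was at 3.25, 2.97 and 3.42 CPM in glands and 1.86, 2.62 and 2.55 CPM in tumors (-0.40, adjusted p = 0.271). Exons of Tjp3 overlap those of Apba3, so its value is less certain. Per length Tjp1 was above Tjp3 in every library, at 39.3 ± 11.7 and 74.7 ± 6.72 CPM per kb in glands and tumors against 1.06 ± 0.0745 and 0.773 ± 0.138. The genes that rose belong to the polarity complexes that place the junction: Pard6g (2.43, SE 0.29), Crb3 (1.8, SE 0.43) and Pard3 (1.44, SE 0.17). Crb3 was low in the glands, at 1, 8 and 10 fragments, with M11035 under the floor. Other polarity genes of the list were not called. Mpp5 (0.83), Prkci (0.71) and Inadl (0.45) passed the p but not the fold threshold, and Prkcz (-0.23, adjusted p = 0.570) passed neither. Pard6b, a relative of Pard6g, was not called (1.14, adjusted p = 0.108) but passed with the replicate block (adjusted p = 0.0325). Cgnl1, which encodes paracingulin, was the gene that fell (-1.27, SE 0.18, adjusted p = 0.000819), from 113, 160 and 158 CPM to 54.5, 68.4 and 54.1 CPM. Its relative Cgn, cingulin, was higher by 0.89 (SE 0.27, adjusted p = 0.0272), below the fold threshold, and its exons overlap those of BC021767.

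Of 5 genes whose proteins bind or process claudin partners, 2 rose, with a median of 0.81 (14.5% of all genes rose). They were Spint1 (2.69, SE 0.37, adjusted p = 0.000619), an inhibitor of membrane serine proteases, and its target St14 (1.84, SE 0.37, adjusted p = 0.00426), the protease matriptase. Spint1 went from 3.86, 7.27 and 11.9 CPM in glands to 35.4, 52.7 and 58.7 CPM in tumors. Epcam was at 105, 122 and 227 CPM in glands and 194, 225 and 213 CPM in tumors (0.56, adjusted p = 0.124), and Spint2 had the smallest difference of the 5 (0.45).

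Regulators of epithelial junction genes were also read from the same fit. All 7 epithelial regulators in the table rose, with a median log2 fold change of 2.44. They were the grainyhead factors Grhl3 (5.97), Grhl1 (2.63) and Grhl2 (1.46), the zinc finger factor Ovol1 (4.78), the splicing regulators Esrp2 (2.44) and Esrp1 (2.18), and Elf3 (1.76). Grhl3 was the most extreme, at 0.813, 1.16 and 0.684 CPM in glands and 63.5, 94.8 and 104 CPM in tumors (SE 0.26, adjusted p = 1.76e-06). Exons of Esrp2 overlap those of Nfatc3, so its value is less certain. Of 5 factors known to repress claudin and occludin genes, Snai2 (1.69, SE 0.29) and Snai1 (1.60, SE 0.44) rose, Zeb1 fell (-1.17, SE 0.14, adjusted p = 0.000266), and Twist1 (0.52) and Zeb2 (-0.24), whose exons overlap those of Gm13476, were not called. Zeb1 was at 151, 183 and 166 CPM in glands and 69.2, 76.8 and 74.0 CPM in tumors, and Snai2 at 13.0, 28.9 and 15.6 CPM and 69.2, 59.4 and 50.5 CPM. The call of Snai1, a low gene, was lost without M9232 (adjusted p = 0.0515), T11035 (0.0611) or T9232 (0.0741). Over all 52 membrane, plaque, partner and regulator genes, 17 were called higher and 5 lower, with a median of 0.54, against 14.5% and 13.7% of all genes.

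**Figure D4:**
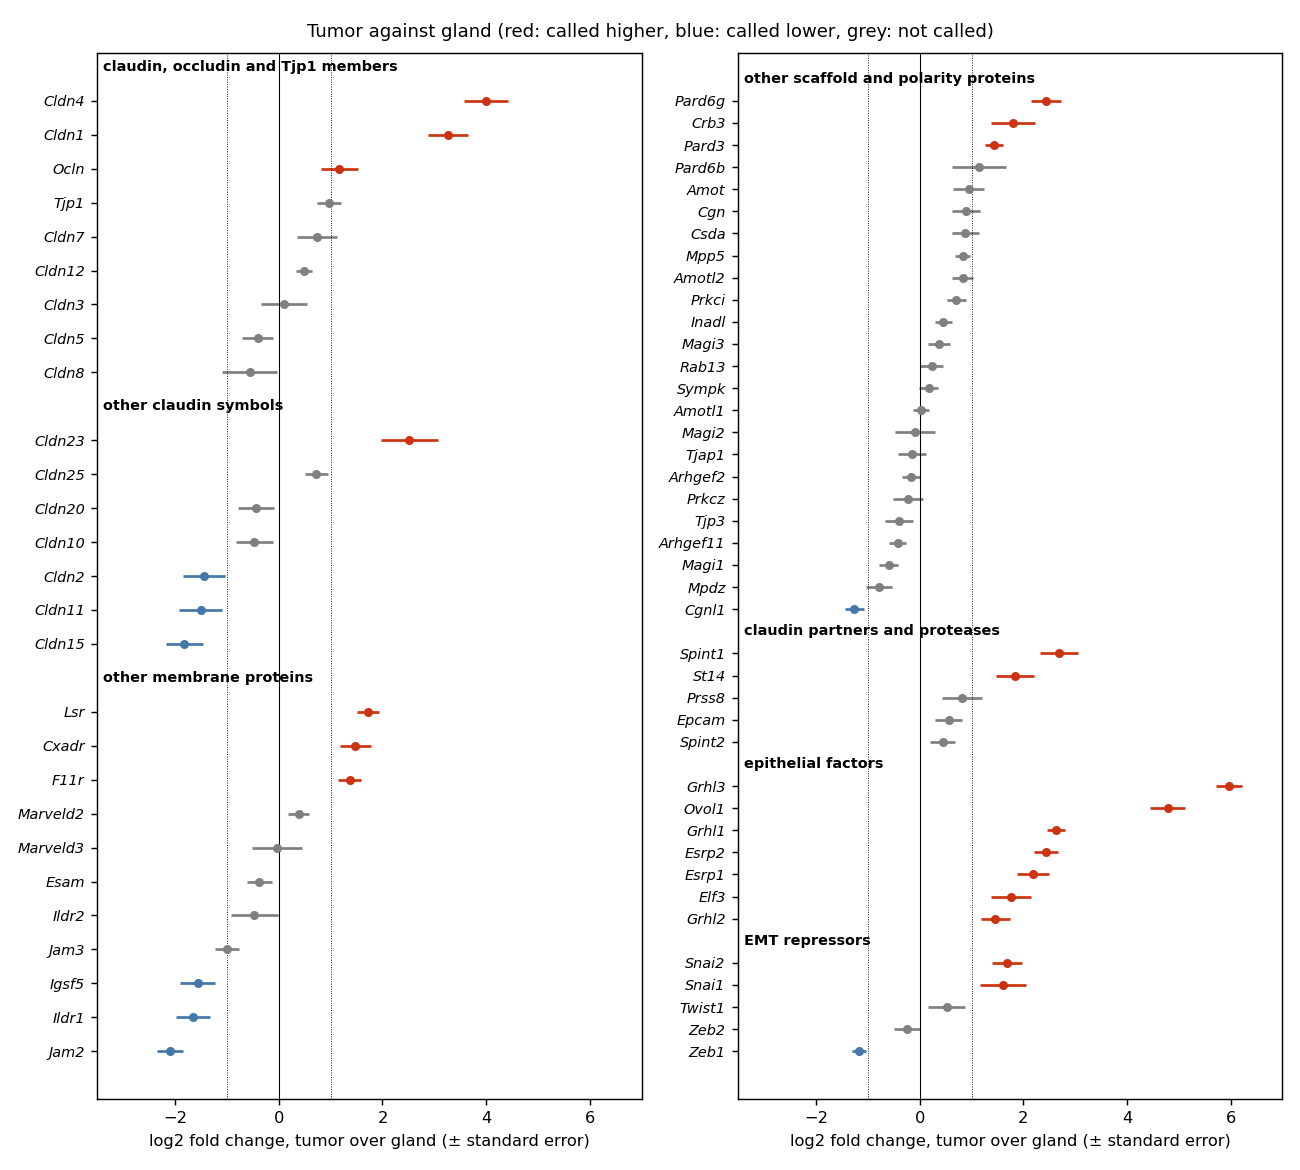
Log2 fold change of tumor over gland, with its standard error, for the claudins, Ocln and Tjp1, the other claudins and the junction lists (red, called higher; blue, called lower; grey, not called). Related genes had unlike values, such as Cldn4 (3.99) and Cldn3 (0.10), Lsr (1.72) and Ildr1 (-1.66), and the repressors Snai2 (1.69) and Zeb1 (-1.17).

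The genes whose level ran most closely with each claudin were listed by Pearson r of log2(CPM + 0.5) over the 6 libraries among the 14711 other genes whose mean reached 1 CPM. The 6 points fall into 2 groups and share their libraries, so the r values are a description with no test. A gene that separates the tissues has a high r with the many others that do. The counts above 0.95 therefore largely repeat the comparison of tumor and gland and add nothing to the calls. For Cldn1 the closest genes were Cttnbp2nl (0.999), Nipal4 (0.998) and Arg1 (0.998), and 999 genes had an r above 0.95. For Cldn4 they were Ly6d, Sprr1a and Hras1 (0.999 each), with 1070 genes above 0.95. Cldn12 had Gm11149 (0.999), Ctnnal1 (0.997) and Snai2 (0.996), Ocln had Fcgr4 (0.997), Wwp2 (0.996) and Stx3 (0.994), and Tjp1 had Cyfip1, B4galt6 and Hip1 (0.998 or above). Above 0.95 there were 387 genes for Tjp1, 334 for Cldn12 and 157 for Ocln, and fewer for the 4 claudins that did not pass the test, with 33 for Cldn7 (Gpr65, Irgm1, Pik3c2a), 26 for Cldn5 (Gm13582, Galt, 1700096K18Rik), 17 for Cldn3 (Trafd1, Bcl2a1d, Gm19710) and 9 for Cldn8 (Rgs20, 4932438H23Rik, Unc13b).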

How the data were processed

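RNA-Seq libraries of 3 glands and 3 tumors from the same 3 mice were prepared with the Ovation V2 kit and sequenced together in 1 lane. Per the submitters' processing notes, CASAVA 1.8.2, TopHat2 2.0.3, HTSeq 0.5.3p9 and edgeR 3.6.1 were used on mm9. By the methods of the study, RefSeq genes with fewer than 10 fragments in all were removed. The authors deposited edgeR CPM on the effective library size, recorded here as a signal since columns do not share a fixed sum. Fragments were recovered from the CPM steps (100% whole within 0.01 of a step), and 0 columns were left unused. Limma 3.58.1 (R 4.3.3, mean-variance trend, pseudocount 0.5 CPM, no mouse term) was fitted to all 15280 genes, two-sided, and tested on simulated data. Alternatives were other pseudocounts, a filter at a mean of 1 CPM, other scalings, edgeR 4.0.16 and DESeq2 1.42.0 on recovered fragments, the replicate block and leaving out each library; marker ratios without Muc1 were added after seeing the data. Intervals of ratios are exact conditional binomial intervals. Lengths are from GENCODE vM1; none of the 16 claudin, occludin and Tjp1 genes had a transcript of another gene at 90% identity over 200 bases (BLAST 2.17.0), nor an exon shared with another gene of the table. The chi-square per degree of freedom between any pair of libraries of the same tissue was at least 13.0, so every library was counted as a sample of its own.

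Mouse numbers pair the samples, since gland and tumor came from the same animal; deviations from the group means correlated at 0.107, 0.151 and 0.0168 over 14712 genes. The genes and lists were chosen with earlier results of these data known. Named genes are all 9 genes, every called claudin, the highest, the lowest and up to 6 called genes in each direction of the other lists (marker lists by counts, sums and extremes), and the 3 genes with the highest Pearson r to each of the 9. Pard6a and Ovol2 were not analysed here, and some genes were left out of the lists and are not reported here. Wbscr27 (for its position), Tjp3, Cgn, Marveld2, Jam3, Pard6b, Mpp5, Prkci, Inadl and Prkcz were added after their values were seen.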

Additional observations from a re-analysis of the deposited data

How the results depend on the processing

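Under the 16 alternatives the number of the 9 genes called higher stayed at 3 except when a library was left out, where it ran from 2 to 5 (5 without M9232), and 0 were called lower in each. Other claudins called lower were 2 or 3 under the other settings and ran from 1 (without M9232) to 3 when a library was left out. Of the 9 genes, Cldn1 and Cldn4 were called under all 16 alternatives (log2 fold changes of 2.94 to 3.66 and 3.49 to 4.97). With the replicate block, that is the paired fit by mouse, Ocln had an adjusted p of 0.00666 (limma) and 0.00599 (edgeR), Pard6b was called (1.14 and 1.22), Jam3 was called with edgeR (-1.06), Cldn2 lost its call with edgeR (-2.30), and no other call of a gene of these lists changed, though the adjusted p of Cldn12, uncalled for its fold, rose to 0.0522 and 0.0579. The sign turned for Cldn3 with edgeR (-0.070) and DESeq2 (-0.042), and in leave-one-out fits for Cldn3 (-0.31 to 0.50), Marveld3 (-0.65 to 0.49), Magi2 (-0.48 to 0.20), Prkcz (-0.41 to 0.010) and Amotl1 (-0.050 to 0.16), all uncalled; the cause was not tested. No scaling moved the median of all genes by more than 0.1. Cldn11 lost its call at a pseudocount of 1 (-0.99). With 3 to 21 fragments for Cldn3 and at most 5 for Cldn4 in a gland, depth limits the precision of both.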
